A study of Mus musculus with 9 samples.

Results

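Hepatocytes take up bile acids, bilirubin, hormones and drugs from portal blood and pass them on, often after conjugation, into bile or back into blood. The organic anion transporting polypeptides, encoded by the Slco genes, carry out much of the uptake at the sinusoidal (blood-facing) membrane. Efflux is driven by ATP-binding cassette (ABC) pumps, of which Abcc2, Abcb1a and Abcg2 encode pumps of the canalicular (bile-facing) membrane, and Abcc3 and Abcc4 encode pumps of the basolateral membrane that return conjugates and bile salts to blood. Basolateral pumps are known to rise in the liver under cholestasis and under inducers of drug metabolism. The 10 genes described here are 5 uptake carriers (Slco1a1, Slco1a4, Slco1b2, Slco2b1 and Slco2a1) and these 5 pumps. They were found by gene name among the 52151 entries of the gene expression table, where 10 of the 16 entries with such a name held a known transcript, 1 for each gene, and were used. The other 6 were short assembled entries named Abcg2, which are given with that gene.

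Liver RNA gave 3 libraries of pair-fed mice (PF), which received an isocaloric liquid control diet, 3 of alcohol-fed mice (AF), on the Lieber-DeCarli alcohol diet, and 3 of mice on the alcohol diet that also received intraperitoneal MNA at 50 mg/kg, a compound that the labels do not spell out. All groups were fed for 5 weeks and carry an age of 8 weeks, and according to the methods the PF and AF mice were male C57BL/6J, taken after a fast. The strain label is C57BL/6 in PF and AF and carries another final number in each MNA sample. Each library stands for 1 sample, and the labels do not number the animals, so the p-values measure the spread between these samples. Levels are in FPKM, the number of sequenced fragments of a transcript scaled to its length and to the size of the library, which allows genes of different length to be set side by side. Total reads, estimated with an assumed 150 bases per read, ranged from 57800660 to 82179248 per library. Mean base coverage was 5.84 to 8.3 reads for each FPKM, so that Abcc4 at its lowest PF level of 0.25 FPKM rested on a coverage of about 1.5. AF replicate 3 and the first MNA library stood apart from the other 7 by the summed FPKM of transcripts in introns (9433 and 8934, against 2477 to 4937), and results that turn on them are given with and without them.

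The tissue carried the transcripts of hepatocytes throughout. The summed level of 8 hepatocyte markers (Alb, Apoa1, Ttr and others) was 19000 to 24200 FPKM in PF, 17200 to 24000 in AF and 22200 to 24200 with MNA. Most of this sum was Alb, with a mean of 14700.0 FPKM in PF and 14100.0 in AF. Single markers moved in both directions from PF to AF, such as Ttr (2330.0 ± 236.0 to 1490.0 ± 603.0 FPKM) and Tat (164.0 ± 67.6 to 388.0 ± 192.0), with overlapping groups. Of 8 cholangiocyte markers, which matter here because bile duct cells also carry some of these pumps, 6 stayed under 1 FPKM in all 9 libraries. Their sum was 3.46 to 4.5 FPKM in PF, 4.96 to 9.43 in AF and 3.63 to 6.42 with MNA. In bulk tissue, fewer cells of a type and less RNA per cell cannot be told apart.

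Slco1a1 and Abcc4, which changed most under alcohol, are shown here with the sequence before their start, so that a reader can place them. Slco1a1, Slco1a4 and Slco1b2 lie in the Slco cluster of mouse chromosome 6 (build GRCm38). Slco1a1 occupies chr6:141907282-141946962 on the minus strand, with a longest coding transcript of 15 exons and 3904 bases. Slco1a4 lies at chr6:141805440-141856199 on the minus strand and Slco1b2 at chr6:141629518-141686646 on the plus strand. Abcc4 spans chr14:118482692-118706219 on the minus strand (31 exons, 5715 bases) and Abcc3 spans chr11:94343295-94392997 on the minus strand (31 exons, 5005 bases). RefSeq promoter sequence (GRCm38.p6) was matched for 9 of the 10 genes, all but Abcc3. For Slco1a1 and Abcc4 the RefSeq start was the base at which the gene entry of the table begins. The 250 bases before it are printed on the strand of the gene. Capitals mark matches on either strand to the letters AGGTCA (a nuclear receptor half-site), TGACNNNGC (the core of the antioxidant response element), TTCNNNGAA (a STAT core) and GCGTG (the aryl hydrocarbon receptor core).
Slco1a1 promoter, chr6:141946963-141947212, minus strand: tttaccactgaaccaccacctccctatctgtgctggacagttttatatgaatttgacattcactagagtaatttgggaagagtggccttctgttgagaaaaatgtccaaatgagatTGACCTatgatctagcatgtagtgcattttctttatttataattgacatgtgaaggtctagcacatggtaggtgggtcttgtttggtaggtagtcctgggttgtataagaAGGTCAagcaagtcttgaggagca
Abcc4 promoter, chr14:118706220-118706469, minus strand: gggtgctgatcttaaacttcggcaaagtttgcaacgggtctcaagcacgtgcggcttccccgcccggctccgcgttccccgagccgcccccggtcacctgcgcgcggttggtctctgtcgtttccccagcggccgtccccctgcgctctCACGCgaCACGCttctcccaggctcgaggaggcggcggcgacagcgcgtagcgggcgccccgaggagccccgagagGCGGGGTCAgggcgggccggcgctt

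The Slco1a1 window held 2 matches to AGGTCA, beginning 134 and 24 bases before the start, and none to the other motifs. The Abcc4 window held 1 match to TGACNNNGC at 25 bases before the start and 2 matches to GCGTG on the opposite strand. These letters are common: of 32851 promoter windows of the same 250 bases, 14.0% held AGGTCA, 10.2% held TGACNNNGC, 7.02% held TTCNNNGAA and 28.2% held GCGTG. Among the 9 windows of the members, AGGTCA stood in 3 (Slco1a1, Slco1b2 and Abcc2), TGACNNNGC in 2 (Abcc2 and Abcc4), and TTCNNNGAA in that of Slco1b2 only. A match is a description of the letters and was not tested as a binding site.

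Slco1a1 was also a gene that the study picked from these samples for qRT-PCR, so that its direction here is not independent of that choice. By that assay the paper reports it as lower in AF liver. The primer pair is shown because its letters tell Slco1a1 from its neighbours.
Slco1a1 forward primer: tcttgcccaaatacctggag
Slco1a1 reverse primer: ggacaggccaaatgctatgt
Both primers matched 3 Slco1a1 transcripts of GENCODE M21 exactly, with a product of 173 bases that spans chr6:141923052-141924398. In the longest coding transcript the product runs from exon 8 to exon 9. The forward primer also matched transcripts of Slco1a5 and the reverse primer matched no gene but Slco1a1. Sequence shared between relatives could also blur the FPKM values. Of the 31-base words of the longest coding transcript, 5.5% were shared with transcripts of other genes for Slco1a1, 8.49% for Slco1a4 and 24.8% for Abcb1a, mostly with Abcb1b. For Slco2b1, 435 of 4351 such words were shared, 385 of them with the opposite-strand Gm15635. None were shared for Slco1b2, Abcc3 or Abcc4.

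The first question was what alcohol feeding did to these genes. In AF livers, Abcc4 and Abcc3, the basolateral pumps, were upregulated and Slco1a1, an uptake carrier of male mouse liver, was downregulated. Abcc4 rose from 0.293 ± 0.0379 to 6.2 ± 1.2 FPKM, Abcc3 rose from 29.3 ± 1.6 to 90.7 ± 14.2 FPKM, and Slco1a1 fell from 45.5 ± 9.74 to 11.0 ± 5.7 FPKM (mean ± SD, n = 3). The methods give, for lncRNAs, a threshold on the log2 fold change (log2 FC; beyond 1 or -1) and on p (under 0.05), and this threshold was applied here to all genes. The log2 FC was taken as the log2 ratio of group means, and p, before adjustment, from limma on log2(FPKM + 1). All 10 genes passed the minimum mean of 0.5 FPKM. In this comparison, 3 of the 10 passed the threshold, against 4.3% of the 12268 genes tested, and 2 of them also had a Benjamini-Hochberg adjusted p under 0.05, against 0.326%. Without AF replicate 2, 5 of the 10 passed, the other two being Slco1a4 and Abcb1a, against 4.32% of all genes tested then. The median log2 FC was 0.34 over the 10 genes and -0.03 over all genes tested. The 10 genes were chosen with earlier results of these data known, so their counts and median were not tested against all genes.

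**Figure D1:**
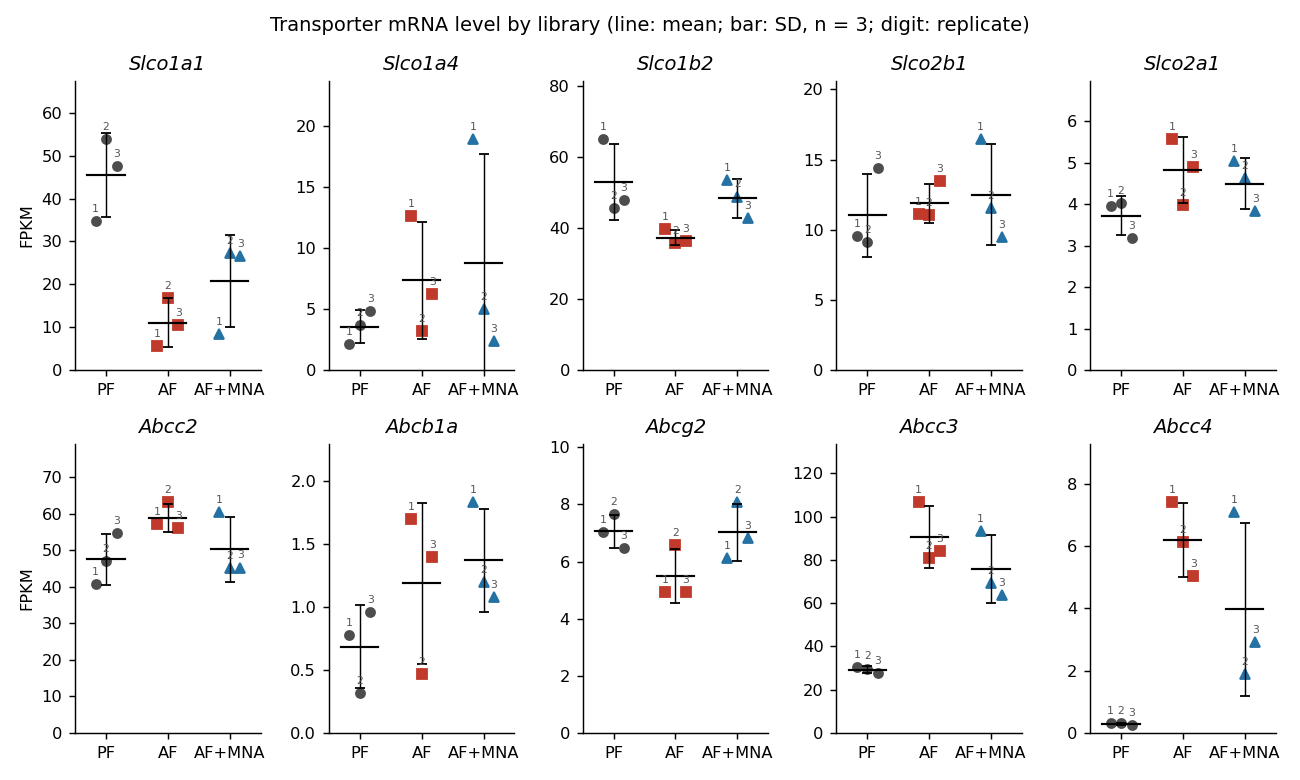
FPKM (linear axis from 0) of each of the 10 transporter genes in the 3 PF, 3 AF and 3 AF+MNA libraries. Each symbol is a library with its replicate number, the line is the mean and the bar the SD (cut at 0). Abcc3 and Abcc4 lay between 80.83 and 107.0 and between 5.04 and 7.43 in AF, above every PF library, and Slco1a1 lay at or below 16.92 in AF against at least 34.81 in PF.

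Abcc4, known as Mrp4, exports bile salts with glutathione, cyclic nucleotides and sulfated steroids. Its level was 0.31, 0.32 and 0.25 FPKM in PF replicates 1 to 3, 7.43, 6.12 and 5.04 in AF and 7.11, 1.88 and 2.92 with MNA. The groups PF and AF did not overlap, and the ratio of their means was 21.1 (log2 FC of 4.4). The fitted difference on the log2(FPKM + 1) scale, which understates the change of a gene this low, was 2.46 ± 0.15 (SE), with an adjusted p of 0.00293 (limma). In PF it was the lowest of the 10 genes, overlapping in range only with Abcb1a next to it, and in AF its range overlapped those of its neighbours in level, Slco1a4 and Abcg2. Every AF sum of the cholangiocyte markers (at least 4.96 FPKM) also lay above every PF sum (at most 4.5). Within AF the library with the highest sum, replicate 3 at 9.43 FPKM, had the lowest Abcc4, whereas with MNA the library with the highest sum, replicate 1 at 6.42, had the highest Abcc4. The part of these markers in the result was not tested. Another linear model left the variances unmoderated and added a library-size covariate, the sum of the lower log2(FPKM + 1) values of each library. This covariate comes from values already scaled for depth and is not the number of reads. In that model (limma lmFit) the adjusted p of Abcc4 was 0.184.

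Abcc3, or Mrp3, is the main basolateral exporter of glucuronides such as bilirubin glucuronide. Its level was 30.57, 29.78 and 27.49 FPKM in PF, 107.0, 80.83 and 84.23 in AF and 93.58, 69.49 and 63.93 with MNA. All AF and MNA libraries lay above all PF libraries. The AF mean was 3.1 times that of PF, with a fitted difference of 1.59 ± 0.15 and an adjusted p of 0.0143 (limma). In PF, Abcc3 came in level after Slco1b2, Abcc2 and Slco1a1, and in AF it was the highest of the 10 with no overlap with Abcc2, the next. The adjusted p of Abcc3 rose above 0.05 without AF replicate 3 (0.053) and without any 1 of the PF replicates (0.056 to 0.0802), by limma, and was 0.283 in the model with the covariate and no moderation. Without AF replicate 3, 3 of the 10 genes passed the threshold of the methods, against 6.27% of all genes tested then.

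Abcc2, or Mrp2, exports conjugates into bile. Its level was 40.83, 47.05 and 54.74 FPKM in PF, 57.31, 63.33 and 56.04 in AF and 60.47, 45.04 and 45.28 with MNA. Every AF library was above every PF library, by a small margin, but the log2 FC of 0.31 did not reach the threshold (adjusted p = 0.489, limma). The ratio of Abcc3 to Abcc2 within a library was 0.749, 0.633 and 0.502 in PF, 1.87, 1.28 and 1.5 in AF, then 1.55, 1.54 and 1.41 with MNA. Abcc3 was thus the less abundant of the pair in each PF library and the more abundant in each of the other 6. This ratio was chosen after the levels were seen and was not tested.

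The other canalicular pumps did not pass the threshold. Abcg2, or Bcrp, which exports sulfates and porphyrins, had 7.04, 7.65 and 6.48 FPKM in PF, 4.92, 6.58 and 4.95 in AF and 6.13, 8.1 and 6.83 with MNA. AF replicate 2 overlapped the PF range (log2 FC of -0.36, adjusted p = 0.462, limma). The 6 assembled Abcg2 entries summed to 3.59 FPKM in AF replicate 3 and 4.98 in the first MNA library, and to 0.0 to 2.05 in the other 7. Abcb1a, a multidrug resistance pump for bulky hydrophobic drugs, was low, at 0.78, 0.32 and 0.96 FPKM in PF, 1.7, 0.47 and 1.4 in AF and 1.84, 1.2 and 1.08 with MNA. The range of AF spanned most of that of PF (log2 FC of 0.79, adjusted p = 0.663, limma). Its relative Abcb1b did not exceed 0.31 FPKM in any library. Without AF replicate 2, its lowest, the log2 FC of Abcb1a became 1.17, past the threshold (adjusted p = 0.396, limma), whereas it was 0.45 without AF replicate 1 or without PF replicate 2.

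Among the uptake carriers, Slco1a1 encodes Oatp1a1, which is known to be more abundant in male than in female mouse liver. Its level was 34.81, 53.91 and 47.67 FPKM in PF, 5.54, 16.92 and 10.63 in AF and 8.38, 27.24 and 26.56 with MNA. The AF and PF groups did not overlap, the PF mean was 4.12 times that of AF, and the fitted difference was -2.04 ± 0.37. It did not survive correction over all genes (adjusted p = 0.114, limma). Relative to their mean, the AF libraries spread more widely than PF, with a coefficient of variation of 51.7% against 21.4%.

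Slco1b2, the liver-specific Oatp1b2 and the counterpart of human OATP1B1 and OATP1B3, was the most abundant of the 5 Slco genes in each group mean. It had 65.2, 45.63 and 47.91 FPKM in PF, 39.74, 35.88 and 36.45 in AF and 53.65, 48.95 and 42.76 with MNA. AF lay below PF in all libraries, with a log2 FC of -0.5 that is short of the threshold (adjusted p = 0.37, limma).

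Slco1a4, which encodes Oatp1a4, a carrier known to be more abundant in female mouse liver and inducible by drugs, spread widely within the alcohol-fed groups. It had 2.12, 3.71 and 4.86 FPKM in PF, 12.58, 3.22 and 6.26 in AF and 18.92, 4.97 and 2.38 with MNA. AF replicate 2 lay inside the PF range (log2 FC of 1.05, adjusted p = 0.573, limma). Without it the log2 FC was 1.4 and passed the threshold (adjusted p = 0.376, limma), whereas it was 0.41 without AF replicate 1 (adjusted p = 0.807), the lowest and highest values with 1 library left out. The 2 libraries with most Slco1a4, replicate 1 of AF and of AF with MNA, were those with the least Slco1a1. The level of Slco1a1 over that of Slco1a4 was 16.4, 14.5 and 9.81 in PF, 0.44, 5.25 and 1.7 in AF, then 0.443, 5.48 and 11.2 with MNA.

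Slco2b1, a widely expressed carrier of steroid sulfates, had 9.55, 9.12 and 14.41 FPKM in PF, 11.16, 11.05 and 13.5 in AF and 16.48, 11.55 and 9.48 with MNA, and the groups overlapped. Slco2a1 encodes the prostaglandin transporter and is found largely in endothelial cells. It had 3.97, 4.04 and 3.18 FPKM in PF, 5.58, 3.99 and 4.9 in AF and 5.04, 4.64 and 3.83 with MNA, and neither of these carriers had an unadjusted p under 0.05. The sum of 10 endothelial markers was 40.6 to 57.8 FPKM in PF, 56.1 to 74.0 in AF and 67.5 to 70.7 with MNA, with 0 of the 10 past the threshold in AF against PF (4.3% of all genes) and a median log2 FC of 0.44 beside 0.37 for Slco2a1, and its part in the values of Slco2a1 was not tested.

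Added up, the 4 hepatic uptake carriers (Slco1a1, Slco1a4, Slco1b2 and Slco2b1) gave 112.0, 112.0 and 115.0 FPKM in PF, 69.0, 67.1 and 66.8 in AF and 97.4, 92.7 and 81.2 with MNA. The 3 groups did not overlap in this sum, although the carriers that made it up differed from library to library. Slco1a1 supplied 31.2, 48.0 and 41.5% of it in PF, 8.03, 25.2 and 15.9% in AF and 8.6, 29.4 and 32.7% with MNA. The sum was formed after the levels were seen and was not tested.

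**Figure D2:**
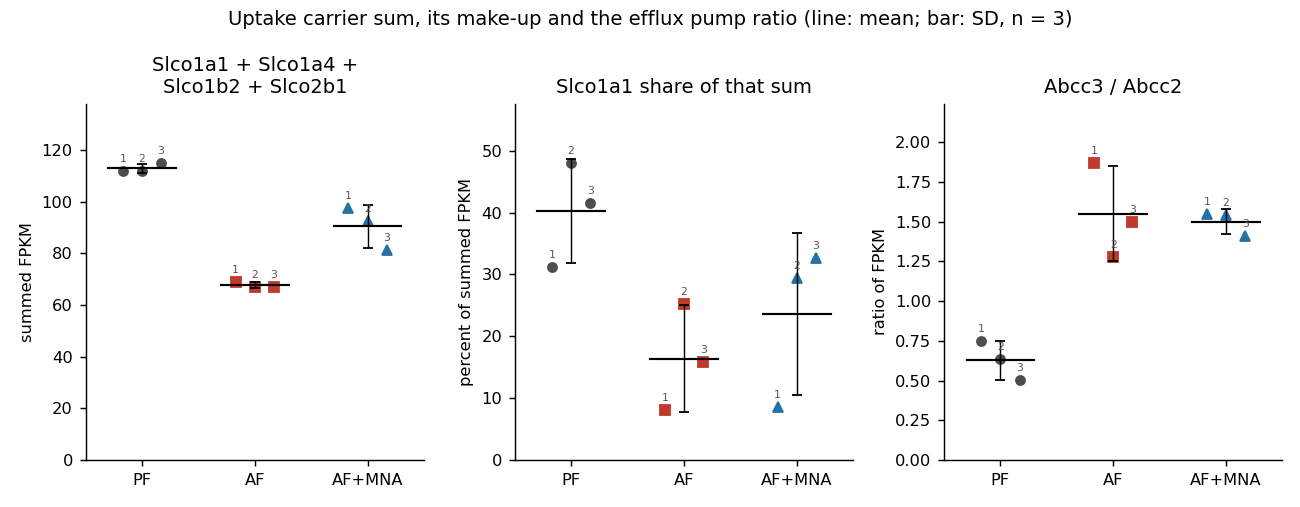
Summed FPKM of the 4 hepatic uptake carriers, the percent of that sum supplied by Slco1a1, and the ratio of Abcc3 to Abcc2 FPKM, by library (symbols with replicate number), with mean (line) and SD (bar, n = 3). The sum was at most 69.0 in AF and at least 112.0 in PF, and the ratio was at most 0.749 in PF and at least 1.28 in AF.

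The groups did not overlap for 5 of the 10 genes in AF against PF, 3 higher in AF (Abcc2, Abcc3 and Abcc4) and 2 lower (Slco1a1 and Slco1b2). Among all genes tested, 18.3% did not overlap, 8.18% upward and 10.1% downward. With 3 libraries against 3 the smallest p that a two-sided exact permutation test can give is 0.1. Groups that do not overlap reach it by construction, so the test adds nothing for these 5 genes.

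The second question was whether MNA changed these genes in alcohol-fed mice. None of the 10 genes passed the threshold in AF with MNA against AF by limma, against 1.98% of the 12214 genes tested, and 0 had an adjusted p under 0.05, against 0.0491%. At an unadjusted p under 0.05 there was 1 (5.22% of all genes), Slco1b2, which was also the only one of the 10 whose groups did not overlap (10.1% of all genes tested). Its mean was 37.4 ± 2.08 FPKM in AF and 48.5 ± 5.46 with MNA (log2 FC of 0.38, adjusted p = 0.94, limma). The fitted difference of Slco1a1 was 0.81 ± 0.54 (log2 FC of 0.91, adjusted p = 0.966), that of Abcc4 was -0.66 ± 0.38 (log2 FC of -0.64, adjusted p = 0.964) and that of Abcc3 was -0.27 ± 0.2 (adjusted p = 0.97), all by limma.

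Calls in this comparison changed without the first MNA library, which was 1 of the pair rich in intron signal. It had the lowest Slco1a1 and the highest Abcc3 and Abcc4 of its group, all within the range of AF, and the highest Slco1a4 of all 9 libraries. Without it, Abcc4 had a log2 FC of -1.37 (adjusted p = 0.467, limma) and Slco1a1 one of 1.29 (adjusted p = 0.775, limma), and both passed the threshold of the methods, as did 2.68% of all genes. With AF replicate 3 left out as well, 1 of the 10 passed, Abcc4 at -1.5 (adjusted p = 0.413, limma), against 3.9% of all genes, and Slco1a1 at 1.26 did not (adjusted p = 0.648, limma). Other omissions of 1 library changed no call of these genes but moved their values too. The log2 FC of Abcc4 was -0.31 without MNA replicate 2 and -0.46 without MNA replicate 3, and that of Slco1a1 was 0.59 without AF replicate 1 and 1.36 without AF replicate 2. Slco1a4 moved from a log2 FC of 0.25 with all libraries to -1.0 without the first MNA library (adjusted p = 0.9, limma). What sets this library apart was not tested.

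Against PF, a comparison that shares its PF libraries with the first and its MNA libraries with the second, AF with MNA had 3 of the 10 genes past the threshold, against 3.89% of the 12276 genes tested. They were Abcc3 (log2 FC of 1.37, adjusted p = 0.0459, limma), Abcc4 (3.76, adjusted p = 0.138) and Slco1a1 (-1.13, adjusted p = 0.306), and Abcc3 alone had an adjusted p under 0.05, against 0.432% of all genes. The adjusted p of Abcc3 was 0.0726 to 0.144 (limma) without MNA replicate 2 or 3 or any 1 PF library, 0.079 with any value above 0 tested, and 0.244 with the covariate and no moderation. Without the first MNA library, 2 of the 10 genes passed (4.46% of all genes), since the log2 FC of Slco1a1 was -0.76, and that of Abcc4 was 3.03. Slco1a1 also failed to pass without PF replicate 2 (log2 FC of -0.99) or PF replicate 3 (log2 FC of -1.1 with an unadjusted p above 0.05, adjusted p = 0.489, limma). The groups did not overlap for 4 of the 10, Slco1a1, Abcc3, Abcc4 and Abcb1a, against 21.4% of all genes. Abcb1a had a log2 FC of 1.0, at the threshold and not above it (adjusted p = 0.328, limma), and it passed without MNA replicate 3 (1.15, adjusted p = 0.433) or PF replicate 3 (1.32, adjusted p = 0.388).

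**Figure D3:**
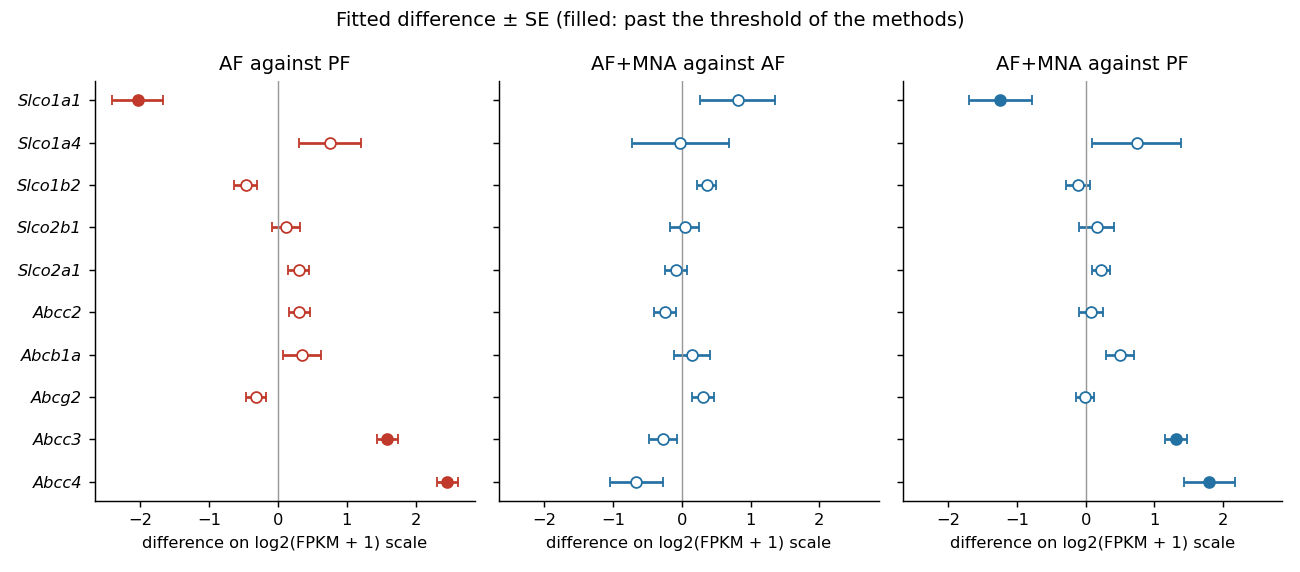
Fitted difference on the log2(FPKM + 1) scale with its SE (bars) for each transporter gene in the 3 comparisons, all on 1 axis, with filled circles for genes past the threshold of the methods. Abcc4 (2.46) and Abcc3 (1.59) lie to the right and Slco1a1 (-2.04) to the left in AF against PF, while no circle is filled in AF+MNA against AF.

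Relatives of these genes were followed from lists. These and the further lists below were chosen with earlier results of these data known. Of 14 other ABC exporters, 10 could be tested, and none passed the threshold in any of the 3 comparisons by limma (4.3%, 1.98% and 3.89% of all genes). Abcb11, the bile salt export pump, had a mean of 74.7 ± 15.4 FPKM in PF, 74.4 ± 14.7 in AF and 71.5 ± 4.99 with MNA. Of 10 other solute carriers, 6 were tested, and 2, Slc10a2 and Slc22a7, fell in AF against PF (2.35% of all genes tested). Slc22a7, the organic anion transporter Oat2, went from 23.5 ± 7.73 to 10.5 ± 4.1 FPKM (log2 FC of -1.16, adjusted p = 0.294, limma). Slc10a2, the apical sodium-dependent bile acid transporter, went from 5.93 ± 3.07 to 1.6 ± 1.56 FPKM (log2 FC of -1.89, adjusted p = 0.37, limma), and its AF and PF ranges overlapped. Slc10a1, or Ntcp, the main sodium-dependent uptake carrier of bile acids, was at 161.0 ± 12.4 FPKM in PF, 188.0 ± 65.1 in AF and 178.0 ± 53.6 with MNA and did not pass. Of 10 other Slco genes, 7 were found by name, and among these Slco3a1 alone was high enough to test and did not pass. Slco1a5 did not exceed 0.01 FPKM in any library. The entry of Slco1a6 held a short processed transcript only, at no more than 0.28 FPKM.

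A further list held nuclear receptors and cofactors known to control these transporters. Of its 13 genes, all tested, 0 passed the threshold in AF against PF or in AF with MNA against AF by limma (4.3% and 1.98% of all genes), and 1 passed in AF with MNA against PF (3.89% of all genes). That gene, named after its values were seen, was Nr1i3, the receptor CAR, with 13.2 ± 2.52 FPKM in PF, 27.0 ± 23.5 in AF and 30.4 ± 15.0 with MNA (log2 FC of 1.21 in the last against PF, adjusted p = 0.273, limma).

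Drug-metabolizing genes known as targets of CAR and PXR, nuclear receptors that sense foreign compounds, rose in AF, as 10 of 14 tested members passed the threshold upward and none downward (1.95% and 2.35% of all genes). The median log2 FC of the list was 2.19, against -0.03 for all genes. Cyp2b10, the classic CAR target, had 0.28, 0.22 and 3.33 FPKM in PF, 259.56, 194.66 and 132.88 in AF and 182.75, 121.82 and 103.45 with MNA (log2 FC of 7.26 in AF against PF, adjusted p = 0.0073, limma). Cyp2c29 rose from 49.6 ± 15.9 to 463.0 ± 23.6 FPKM, Cyp2c55 from 0.26 ± 0.1 to 2.02 ± 0.0929 and Gsta2, a glutathione transferase, from 1.7 ± 0.393 to 26.4 ± 7.76, each with an adjusted p under 0.05. Cyp2b9 and Cyp2b13, near-identical relatives whose reads may be split, were at 0.0 to 0.15 FPKM in PF, at 3.33 to 30.72 FPKM in AF and at 6.01 to 29.47 in AF with MNA. None of the 14 passed in AF with MNA against AF by limma (1.98% of all genes).

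Of 8 tested targets of NRF2, a regulator of the antioxidant response that is known to act on Abcc3 and Abcc4 too, 4 passed upward in AF against PF and none downward (1.95% and 2.35% of all genes). These were Nqo1 (1.78 ± 0.488 to 6.36 ± 3.22 FPKM), Gsta4 (13.1 ± 3.91 to 57.1 ± 20.0), Srxn1 (1.31 ± 0.217 to 3.23 ± 1.06) and Gclc (3.67 ± 1.07 to 7.51 ± 2.21), and none had an adjusted p under 0.05. With MNA against AF, 0 of the 8 passed by limma (1.98% of all genes). Of 5 listed targets of the aryl hydrocarbon receptor, 2 were tested, and 0 passed in the 3 comparisons by limma (4.3%, 1.98% and 3.89% of all genes). In AF against PF the log2 FC was 0.97 for Cyp1a2 (317.0 ± 31.6 to 619.0 ± 106.0 FPKM, groups not overlapping, adjusted p = 0.127, limma) and 1.04 for Tiparp (adjusted p = 0.537), named after their values were seen.

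Because Slco1a1 and Slco1a4 are known to differ between the sexes in mouse liver, genes with that kind of bias were also followed. Of 13 tested male-biased liver genes, 8 passed downward and 0 upward in AF against PF (2.35% and 1.95% of all genes), with a median log2 FC of -2.31. Hsd3b5 had 11.05, 27.64 and 13.29 FPKM in PF, 0.06, 0.17 and 0.13 in AF and 0.01, 0.8 and 1.38 with MNA. Elovl3, a fatty acid elongase, fell from 40.7 ± 12.0 to 2.93 ± 0.923 FPKM, Cyp2u1 from 11.4 ± 1.68 to 2.1 ± 0.797, and Cyp4a12a, Cyp4a12b and Mup3, members of multigene families, from 79.4 ± 26.8 to 9.05 ± 5.44, from 24.2 ± 9.1 to 2.05 ± 0.927 and from 2540.0 ± 376.0 to 405.0 ± 135.0. Of 9 tested female-biased genes, 7 passed upward and 1, Cyp2c69, downward. Cyp2a4 rose from 1.41 ± 0.227 to 27.7 ± 12.3 FPKM (log2 FC of 4.3, adjusted p = 0.00817, limma). Cux2 (0.14 ± 0.0458 to 1.36 ± 1.19 FPKM) and Slc22a26 (0.2 ± 0.0854 to 0.91 ± 0.329) passed without reaching an adjusted p of 0.05. Cyp2b9 and Cyp2b13 belong to both the CAR/PXR and the female-biased list. When AF with MNA was set against AF, 1 of 12 tested male-biased genes (Elovl3, 2.93 ± 0.923 to 11.5 ± 7.5 FPKM, adjusted p = 0.94, limma) and 1 of 10 female-biased genes (Acot3, log2 FC of 1.17, adjusted p = 0.94) passed, both upward (1.03% of all genes).

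**Figure D4:**
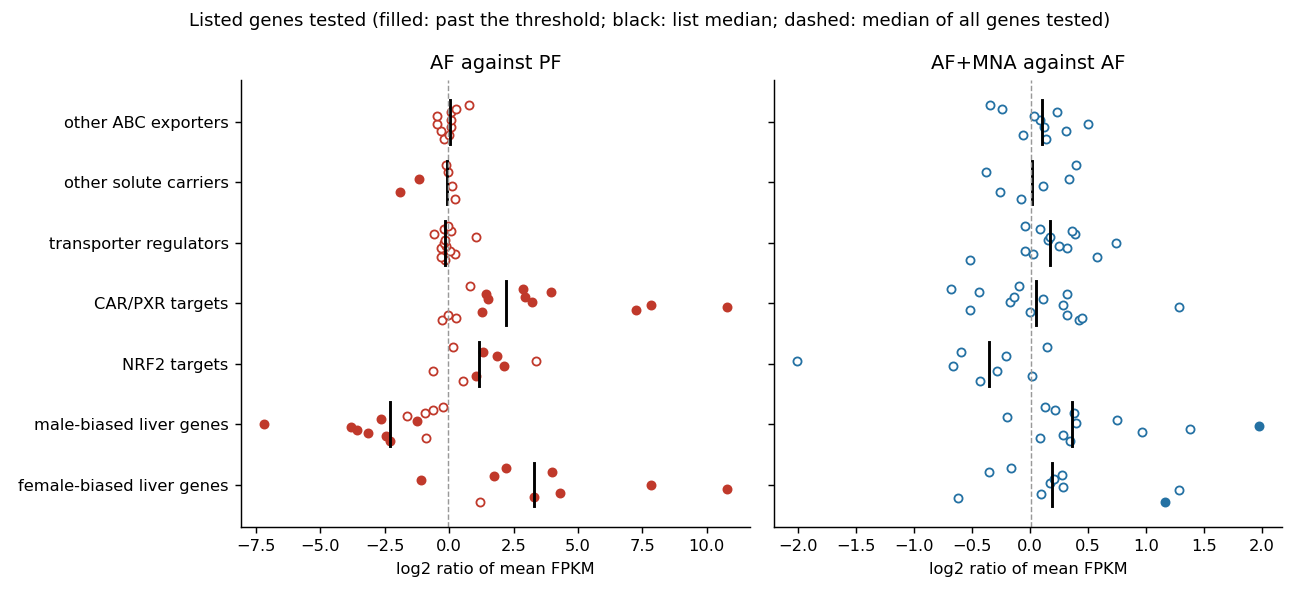
Log2 ratio of mean FPKM for each tested gene of 7 lists, in AF against PF (left) and AF+MNA against AF (right), on axes of different range. Circles are genes, filled past the threshold of the methods, black bars are list medians and the dashed line is the median of all genes tested. In AF against PF the medians of the CAR/PXR and male-biased lists were 2.19 and -2.31, and those of the other exporters and regulators lay at 0.03 and -0.16.

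The genes whose profile over the 9 libraries lay closest to Slco1a1, among 3600 entries of at least 5 FPKM, were Alas2, Ces3b, Mup15 and Mup11, with root mean square distances of 0.16 to 0.238 between scaled log2 values, against a median of 1.35 over all candidates. Alas2, the erythroid form of the first enzyme of heme synthesis, had 37.22, 43.33 and 41.38 FPKM in PF, 6.66, 18.21 and 8.71 in AF and 7.54, 24.68 and 22.01 with MNA, and placed the 9 libraries in the same order as Slco1a1 did. Alas2 is also listed as a blood marker. The summed level of the 8 blood markers found was 333.0 to 451.0 FPKM in PF, 294.0 to 651.0 in AF and 286.0 to 420.0 with MNA. For Slco1a4 the closest were Bag6, Hpcal1, Rpl26 and Rpl30, at distances of 0.226 to 0.432. Bag6 ranged only from 11.04 to 12.73 FPKM, so that likeness of shape does not mean likeness of size.

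The other tables of the series were read at the same loci by coordinates. Across Slco1a1 on the opposite (plus) strand ran 4 assembled lncRNA transcripts named Gm44244, of 5 or 6 exons, which together span chr6:141866358-141966400. Of these, 1 reaches past the start of Slco1a1 and the other 3 end inside the gene, among them the most abundant in AF, with 14.4 of the 22.3 FPKM in AF replicate 2. Their summed level was 0.197, 0.468 and 0.0943 FPKM in PF, 5.75, 22.3 and 6.83 in AF and 4.47, 0.858 and 0.956 with MNA. In the gene table the entry that holds them, with 7 transcripts of which 1 is known, is named Gm6614, a name that another entry carries too. It was at 0.16, 0.45 and 0.16 FPKM in PF, 4.09, 18.95 and 5.27 in AF and 3.53, 0.77 and 1.67 with MNA. It passed the threshold upward in AF against PF (log2 FC of 5.2, adjusted p = 0.11, limma) and downward in AF with MNA against AF (log2 FC of -2.25, adjusted p = 0.94, limma), against 1.95% and 0.95% of all genes in these directions. This entry was chosen after its values were seen. The libraries are strand-specific. Within AF the library with most of the opposite-strand entry, replicate 2, was also the one with most Slco1a1, whereas with MNA the library with most of the entry, replicate 1, had the least Slco1a1 and that with least of the entry, replicate 2, had the most. At Slco2b1 the opposite-strand lncRNA Gm15635 (4 transcripts) summed to 5.16, 9.5 and 12.4 FPKM in PF, 10.8, 9.31 and 4.58 in AF and 8.41, 5.31 and 10.4 with MNA, and the groups overlapped.

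**Figure D5:**
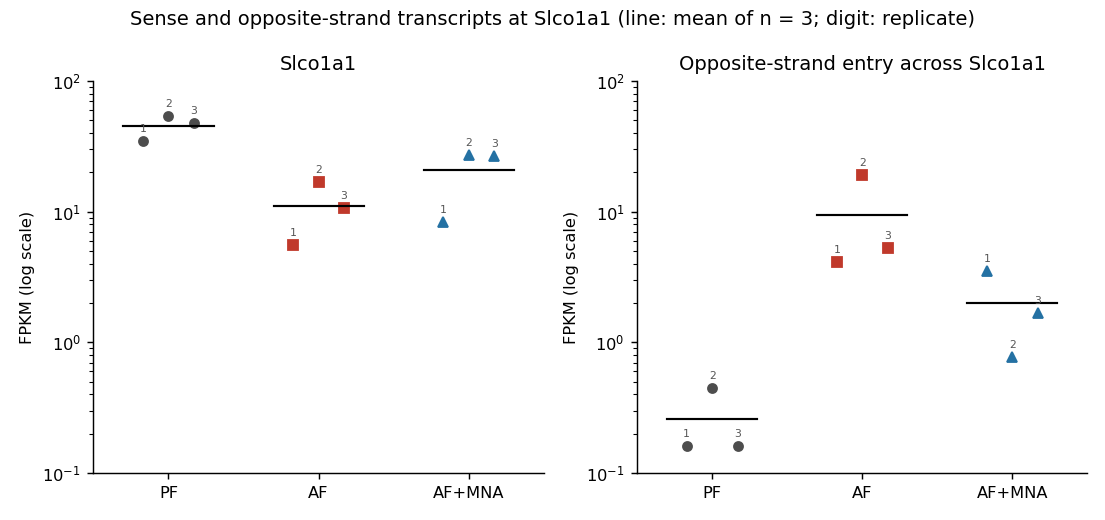
FPKM on a log axis of Slco1a1 (left) and of the opposite-strand entry across it (right) by library, with the mean of each group (line) and the replicate number. Slco1a1 was between 34.81 and 53.91 and the opposite-strand entry at most 0.45 in PF, against at most 16.92 and at least 4.09 in AF.

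Circular RNAs were detected at 7 of the 10 loci, of which 20 were circRNAs made of exons and 1, at Abcc2 with 1 read, was a circular intronic RNA. All 21 together had 154 junction reads over the 9 libraries, of which 78 were at Abcc2 and 58 at Slco1b2. The most read at Slco1b2, of 4 exons at chr6:141663578-141672313, had 9, 4 and 7 junction reads in PF, 6, 1 and 1 in AF and 0, 1 and 3 with MNA. The most read at Abcc2, of 5 exons at chr19:43810471-43814814, had 0, 2 and 2 in PF, 4, 8 and 7 in AF, then 14, 1 and 0 with MNA. At Abcc4, circRNAs had 0 junction reads in PF, 6 in AF, all in replicate 1, and 1 in AF with MNA. Slco2a1, Abcb1a and Abcc3 had none. No test was made on these counts.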

How the data were processed

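Ribosomal RNA was depleted from liver RNA, and strand-specific paired-end libraries were sequenced. The authors computed the gene and lncRNA FPKM values with StringTie (1.3.4 in the submitters' processing notes, which also name cutadapt 1.9, FastQC, HISAT2, TopHat and edgeR), and the gene values are deposited with 2 decimals. The lncRNA table as deposited also holds read coverage, an unscaled signal, and the circRNA table holds junction read counts with a depth-scaled signal. Total reads were estimated from the ratio of these counts to the scaled signal, with 150 bases per read assumed. Coordinates matched GENCODE M21 (GRCm38). The aligner's settings are not given in the sources used here. Neither FPKM nor coverage gives counts, so precision rests on the replicates.

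Of 52151 gene entries, the analysis kept the 26345 that carry a gene name and at least 1 annotated transcript. Those averaging 0.5 FPKM or more in the 6 libraries of a comparison were tested as log2(FPKM + 1) with limma 3.58.1 (lmFit, eBayes with intensity trend) in R 4.3.3, with Benjamini-Hochberg adjustment over all genes tested, two-sided. Group mean FPKMs gave the log2 FC as their log2 ratio, and the SE belongs to the fitted difference. Exact permutation tests used scipy 1.17.1 and figures matplotlib 3.10.9 (Python 3.11.15). The fit was tested on simulated data. The transporters and gene lists were chosen with earlier results of these data known. Other genes named are those of the lists past the threshold in AF against PF or AF with MNA against AF (up to 6 a list by size), 5 relatives in any case, and the 4 closest profiles to Slco1a1 and to Slco1a4. Of the listed genes, 13 were not found by name. Alternatives were a pseudocount of 0.1, other minimum levels, equal medians, no trend, all 9 libraries, a replicate block, the fitted difference as the fold change, a linear model with a library-size covariate and no variance moderation (both changed together), and each library left out. The library-size covariate was the sum of the lower log2(FPKM + 1) values of a library and not its number of reads. The omission of both intron-rich libraries was added after seeing the data.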

Additional observations from a re-analysis of the deposited data

Results flagged for a closer look

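In tables that the comparisons do not use, 3 transporter loci had a signal that was higher in every AF library than in every PF library. The summed FPKM of the 4 opposite-strand lncRNA transcripts named Gm44244 in the lncRNA table across Slco1a1 averaged 11.6 in AF and 2.1 in AF with MNA, against 0.253 in PF. Single libraries carried much of these means, replicate 2 in AF (22.3, against 5.75 and 6.83) and replicate 1 with MNA (4.47, against 0.858 and 0.956). Transcripts inside introns of Abcg2 averaged 1.37 FPKM in AF and 1.46 in AF with MNA, against 0.0748 in PF, and most of this came from the 2 libraries rich in intron signal (3.18 in AF replicate 3 and 3.48 in the first MNA library, at most 0.531 in the other 7). A circRNA of Abcc2 at chr19:43810471-43814814 had 19 junction reads in AF against 4 in PF. None of these differences was tested in those tables.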

How the results depend on the processing

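Of 457 values of single transporters under the alternatives, 428 kept their direction and their side of the threshold, 3 lost it, 8 gained it and 18 changed sign. Abcc3, Abcc4 and Slco1a1 passed the threshold of the methods in AF against PF in all 15 alternatives. The adjusted p ranged from 0.00882 to 0.283 for Abcc3, from 0.00133 to 0.184 for Abcc4 and from 0.0787 to 0.353 for Slco1a1. FPKM values without counts limit what can be said of low genes such as Abcb1a. The cause of the changes below was not tested except where fewer libraries or genes entered.

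All genes past the threshold numbered 527, 242 and 477 in AF against PF, AF with MNA against AF, and AF with MNA against PF. They numbered 1183, 675 and 1104 with any value above 0, 265, 81 and 228 at 2 FPKM, and 249, 99 and 229 with the fitted difference as the fold change. In AF with MNA against AF there were 95 with a library-size covariate and no moderation of the variances, which changes both at once, and 470 without both intron-rich libraries, and leaving out 1 library gave 211 to 367, the highest without AF replicate 3. With 1 library left out, transporters past the threshold were 3 to 5 in AF against PF 0 to 2 in AF with MNA against AF and 2 to 4 in AF with MNA against PF, and 1 in AF with MNA against AF without both intron-rich libraries. Transporters with an adjusted p under 0.05 in AF against PF were 0 in this model with covariate and no moderation, and 1 to 2 with 1 library left out. In AF with MNA against PF they were 0 in the same model and with any value above 0, and 0 to 1 with 1 library left out.

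The replicate numbers do not pair the libraries: deviations from the group mean correlated by -0.08 to 0.06 between same-numbered libraries. With the replicate block, transporters with an adjusted p under 0.05 numbered 1 in AF against PF (Abcc4) and 0 in AF with MNA against PF, and the block changed no call by the threshold of the methods.

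Signs changed as follows. In AF with MNA against AF, the log2 FC of Slco1a4 was -0.02 as a fitted difference, -1.1 without both intron-rich libraries and -1.0 to 0.89 with 1 library left out. That of Slco2b1 was -0.08 without both and -0.18 to 0.24 with 1 left out, and with 1 left out Abcb1a ranged from -0.17 to 0.55 and Slco2a1 from -0.22 to 0.02. In AF against PF, Slco2b1 ranged from -0.01 to 0.35. In AF with MNA against PF, Abcg2 was 0.04 with equal medians and -0.12 to 0.08 with 1 left out, Abcc2 ranged from -0.07 to 0.19, Slco1b2 from -0.22 to 0.05 and Slco2b1 from -0.07 to 0.42. Abcb1a passed the threshold there in 3 of 14 alternatives, with equal medians (1.05) and without MNA replicate 3 (1.15) or PF replicate 3 (1.32).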
